A study of Homo sapiens with 6 samples.

Results

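The 34 genes described here encode enzymes of nucleotide synthesis and salvage. They were chosen by name from textbook pathways, with earlier results of these data known. All 34 were found among the 35130 gene names of the deposited tables. They fall into de novo purine synthesis (10 genes), de novo pyrimidine synthesis (5), the making and control of deoxynucleotides (7), salvage (8), and the supply of phosphoribosyl pyrophosphate (PRPP) and transfer of phosphate (4). All libraries came from 1 human neuroblastoma line, SK-N-BE(2), known to carry amplified MYCN. Cells were exposed for 24 h to 1 µM NEN or to the solvent DMSO, with 3 libraries in each group that the labels call biological replicates. The labels name NEN by its abbreviation alone, and published work on neuroblastoma uses it for niclosamide ethanolamine, a mitochondrial uncoupler, which is taken here as background. Both groups share that line, so other neuroblastoma cells were not examined. Nothing in the labels says that replicates came from separate days, and the p-values measure the spread between these libraries.

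Cells build purines stepwise on PRPP up to IMP, from which separate enzymes make AMP and GMP, and they build the pyrimidine ring first and then join it to PRPP to give UMP. The pyrimidine path has 1 step in mitochondria, where DHODH in the inner membrane passes electrons to ubiquinone of the respiratory chain. Ribonucleotide reductase turns ribonucleotides into deoxynucleotides, thymidylate synthase makes dTMP, and both are known to be most abundant in cells that copy DNA. Salvage kinases and phosphoribosyltransferases recycle bases and nucleosides, and proliferating tumour cells draw on both routes.

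Values were in TPM, a transcript abundance scaled to transcript length and library total, so that levels of different genes can be compared. TPM keeps no record of sequencing depth, and depth is therefore unknown. Each library had 17285 to 18041 gene names above 0. The 10 neuroblastoma markers examined, among them DBH and CHGA, all lay above 1 TPM in every library, with sums of 6219 to 6430 TPM in NEN and 5258 to 6054 TPM in DMSO libraries. The labels give bone marrow as the tissue, but of 8 blood cell markers 7 stayed under 1 TPM in every library and 3 were listed at 0 in all of them. Their sums were 0.283 to 0.449 TPM in NEN and 0.657 to 1.92 TPM in DMSO libraries. The 6 stromal markers summed to 25.9 to 31.2 TPM in NEN and 16.1 to 20.9 TPM in DMSO libraries. Among them PDGFRB rose, with 24.3, 22.5 and 19.3 TPM in NEN and 9.27, 8.59 and 12.6 TPM in DMSO libraries. COL1A2, COL3A1, DCN and LUM had NEN means of 68.8%, 82.4%, 72.4% and 81.8% of DMSO, and COL1A1 had 116%. COL1A1, COL1A2 and DCN were not called, and COL3A1 and LUM, with means under 1 TPM, were not tested. The 6 epithelial markers summed to 5.55 to 12.9 TPM in NEN and 7.82 to 9.18 TPM in DMSO libraries. The part of these markers in the results was not tested.

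With NEN, mRNAs for making deoxynucleotides and for thymidine salvage were among those that fell, with RRM2 at 42.7% and TK1 at 44.0% of the DMSO mean. UMPS, which completes UMP, stood at 48.9%. Of the 34 genes, 17 fell and 2, IMPDH2 and CAD, rose at an adjusted p under 0.05 in limma, a linear model fitted to log2(TPM + 1) over the 12576 genes whose mean reached 1 TPM. Among all genes tested 30.0% were called, 16.5% lower and 13.5% higher. Leaving out 1 library at a time left between 13 and 16 enzymes lower and between 1 and 3 higher. The median fold change of the 34 genes was -0.27 on the log2(TPM + 1) scale, NEN minus DMSO, and that of all genes tested was -0.02. A fall of at least 1 on that scale was found for RRM2, TK1 and UMPS, and for 1.26% of all genes tested, while 0 enzymes and 1.57% of all genes rose by as much. The groups did not overlap for 23 of the 34 enzymes, 19 lower and 4 higher with NEN, where 46.8% of all genes tested lay apart, 25.0% with NEN lower and 21.8% with NEN higher. In such bulk RNA, fewer cells of a type and less RNA per cell cannot be told apart.

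**Figure D1:**
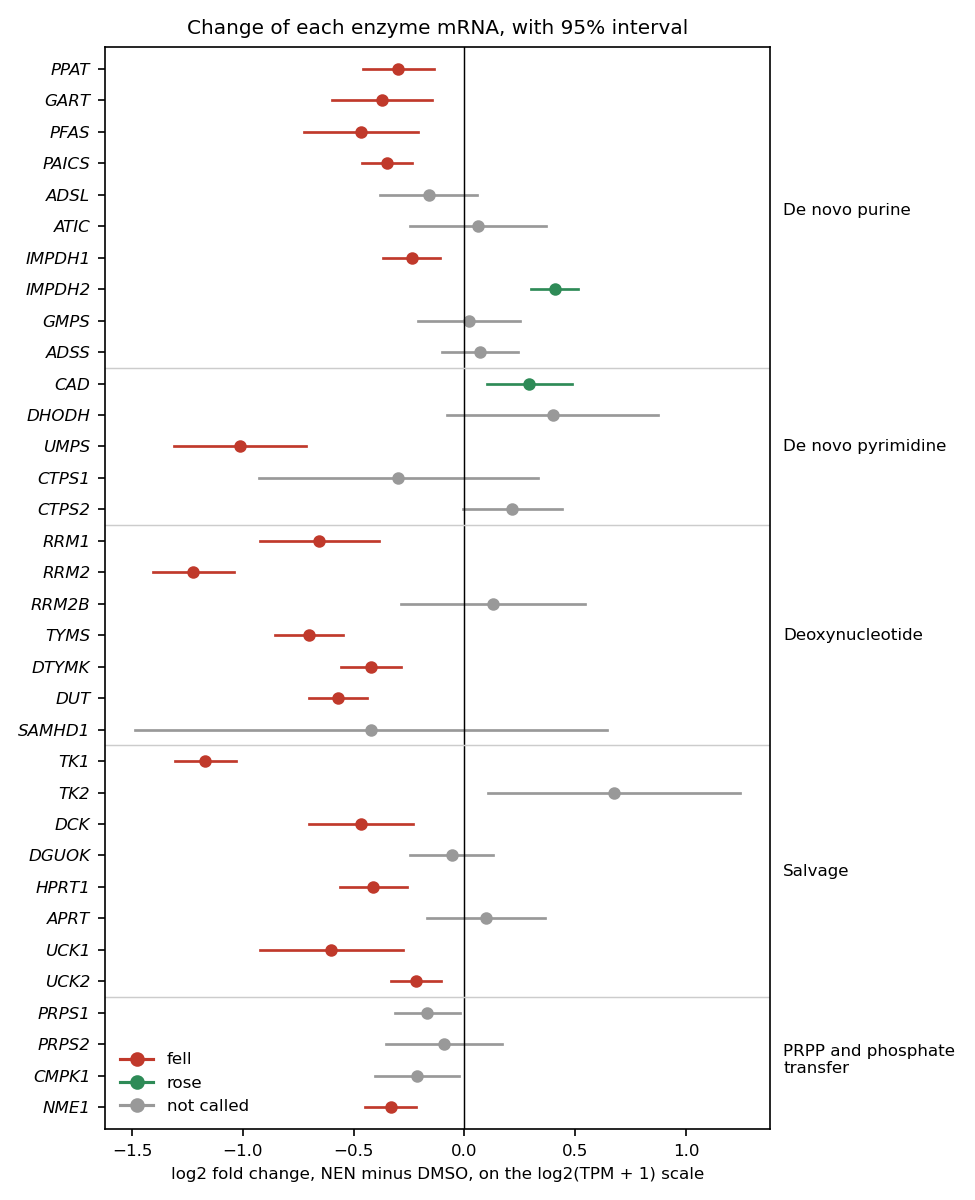
Log2 fold change of each of the 34 enzyme mRNAs (NEN minus DMSO, log2(TPM + 1) scale, 3 libraries each), grouped by branch; points are limma estimates and lines their 95% intervals, coloured by call. RRM2 (-1.22), TK1 (-1.17) and UMPS (-1.01) lie farthest to the left, and IMPDH2 (0.41) and CAD (0.29) are the genes called higher.

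In deoxynucleotide synthesis 5 of 7 genes fell and 0 rose by limma (0 at an unadjusted p under 0.05 too), with a median fold change of -0.57. Of all genes tested 16.5% fell and 13.5% rose. RRM2, the inducible small subunit of ribonucleotide reductase, had 123, 147 and 126 TPM in the NEN libraries, against 296, 322 and 308 TPM in the DMSO libraries. Every NEN library lay far below the lowest DMSO library, and the fold change was -1.22 ± 0.08 (SE, n = 3 per group, adjusted p = 0.00026 by limma). RRM1, the large catalytic subunit, had 63.7, 50.5 and 56.97 TPM with NEN, against 102, 88.7 and 80.4 TPM with DMSO. Its groups also lay apart, with a smaller change of -0.65 ± 0.11 (adjusted p = 0.00603). The alternative small subunit RRM2B, a p53 target that serves DNA repair and mitochondrial DNA, was low in both groups. It had 10.3, 9.53 and 7.46 TPM with NEN, against 6.39, 9.12 and 9.27 TPM with DMSO, with overlapping groups and a fold change of 0.13 ± 0.18 (95% interval -0.29 to 0.54).

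All 3 enzymes around thymidylate fell. TYMS, which methylates dUMP to dTMP, had 119.5, 113 and 114 TPM in the NEN libraries, against 204, 184 and 179 TPM in the DMSO libraries. This was a fold change of -0.70 ± 0.06 (adjusted p = 0.000663). DUT, the dUTPase that supplies dUMP and keeps uracil out of DNA, had 158, 156 and 162 TPM with NEN, against 222, 244 and 242 TPM with DMSO. DUT changed by -0.57 ± 0.06 (adjusted p = 0.000793). DTYMK, the kinase that phosphorylates dTMP, had 251, 238 and 254 TPM with NEN, against 312, 338 and 345 TPM with DMSO and changed by -0.42 ± 0.06 (adjusted p = 0.00255). For all 3 genes the highest NEN library lay below the lowest DMSO library, as it did for 25.0% of all genes tested. SAMHD1, which breaks deoxynucleoside triphosphates down, was near the lower limit of the test. It was listed at 0.9597, 1.501 and 0 TPM with NEN, against 0.527, 1.13 and 2.63 TPM with DMSO, with overlapping groups, and was not called (-0.42 ± 0.45, adjusted p = 0.523). Summed over the 7 genes, the branch held 726, 715 and 719 TPM in the NEN libraries, against 1143, 1187 and 1166 TPM in the DMSO libraries. The TYMS locus overlaps the antisense gene ENOSF1, which had 6.93, 13.2 and 11.1 TPM with NEN, against 19.9, 19.96 and 20.7 TPM with DMSO and fell as well (-0.94 ± 0.20, adjusted p = 0.0136). Strand use is not given in the sources used here, so reads of the shared stretch cannot be told apart.

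**Figure D2:**
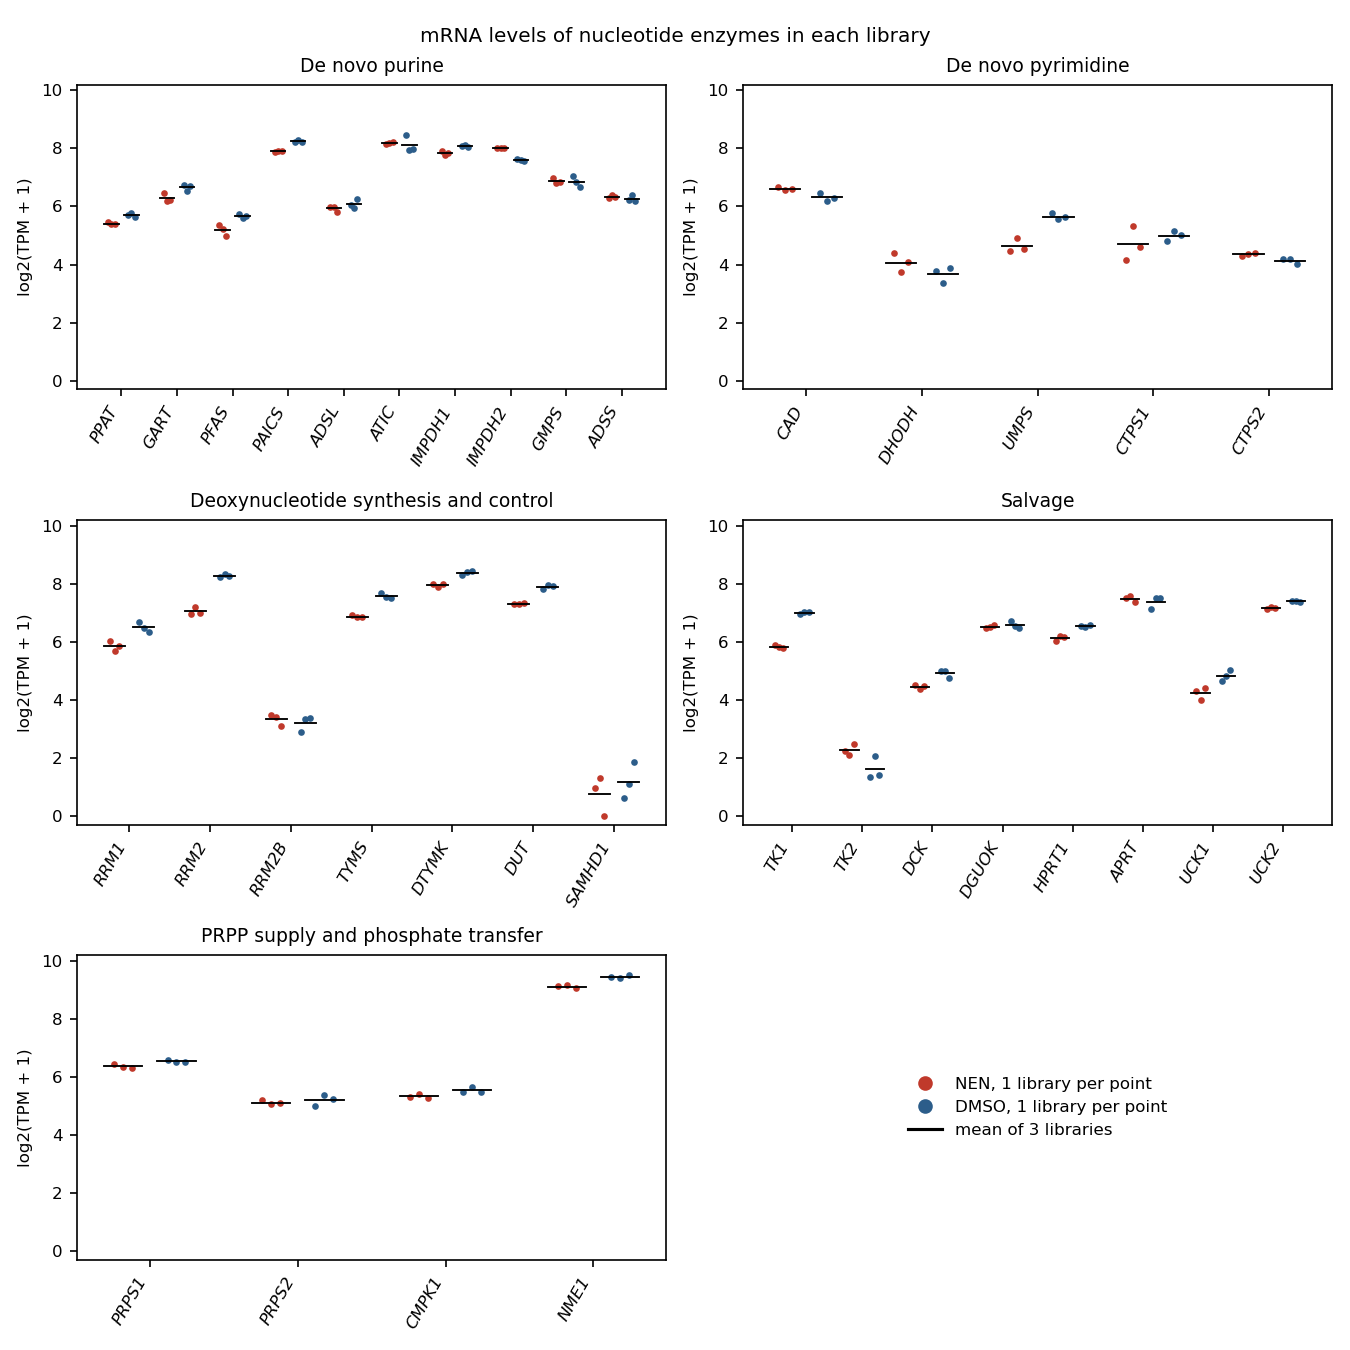
mRNA level of each enzyme on the log2(TPM + 1) scale in every library, with NEN points to the left of DMSO points and bars for the mean of 3 libraries. RRM2, TYMS, DUT, TK1 and UMPS separate by treatment without overlap, while RRM2B, ATIC, GMPS and CTPS1 overlap.

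Among salvage enzymes 5 of 8 fell and 0 rose by limma (1, TK2, at an unadjusted p under 0.05), with a median of -0.31. Over all genes tested the shares were 16.5% lower and 13.5% higher. TK1, the cytosolic thymidine kinase of S phase, had 58.1, 55.4 and 54.3 TPM in the NEN libraries, against 122, 129.6 and 129.8 TPM in the DMSO libraries. The change was -1.17 ± 0.06 (adjusted p = 0.000215), and the libraries of each group lay within a narrow range. Its mitochondrial counterpart TK2 had 3.75, 3.27 and 4.61 TPM with NEN, against 1.52, 3.203 and 1.65 TPM with DMSO. All NEN libraries of TK2 lay above the DMSO ones, but narrowly, and the change of 0.67 ± 0.24 missed the threshold (adjusted p = 0.0747). Without DMSO replicate 2 it was 0.91 (adjusted p = 0.0275).

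DCK, which phosphorylates deoxycytidine and activates several nucleoside drugs, had 22.04, 19.5 and 21.1 TPM with NEN, against 30.9, 31.01 and 26.02 TPM with DMSO. Its groups lay apart and it fell by 0.47 ± 0.10 (adjusted p = 0.0124). DGUOK, the mitochondrial deoxyguanosine kinase, had 86.8, 90.8 and 93.5 TPM with NEN, against 104, 91.9 and 86.8 TPM with DMSO, with overlapping groups and a 95% interval of -0.25 to 0.13. Both mitochondrial deoxynucleoside kinases, TK2 and DGUOK, were thus among the genes without a call, while both cytosolic ones were called lower. The kinase classes were not tested against each other.

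HPRT1, which salvages hypoxanthine and guanine, had 64.6, 72.5 and 70.4 TPM in the NEN libraries, against 92.2, 89.4 and 94.9 TPM in the DMSO libraries. The fold change was -0.41 ± 0.07 (adjusted p = 0.00422). APRT, which salvages adenine, had 180.3, 191 and 163 TPM with NEN, against 139.5, 179.9 and 182 TPM with DMSO. The groups of APRT overlapped, and its change was 0.10 ± 0.11 (95% interval -0.17 to 0.36). The 2 uridine-cytidine kinases both fell. UCK1 had 18.7, 15.1 and 20.1 TPM with NEN, against 24.2, 27.4 and 31.5 TPM with DMSO, a change of -0.60 ± 0.14 (adjusted p = 0.0166). The call of UCK1 was lost without DMSO replicate 3 (-0.51, adjusted p = 0.0509). UCK2 was the more abundant, with 139.8, 145 and 143 TPM with NEN, against 169, 167 and 163 TPM with DMSO, and changed by -0.22 ± 0.05 (adjusted p = 0.0144). The small change of UCK2 lost its call without NEN replicate 1 (adjusted p = 0.0551) or NEN replicate 3 (0.0516), after quantile normalization (0.0514) and with limma fitted without its trend and robust options, or plain limma (0.0587). UCK2 overlaps the antisense gene TMCO1, which had 179, 186 and 166 TPM with NEN, against 279, 269 and 267 TPM with DMSO and fell by 0.62 ± 0.06 (adjusted p = 0.000687). UCK1 overlaps antisense POMT1 (-0.02 ± 0.13, adjusted p = 0.916) and DCK overlaps MOB1B on its own strand (-0.00 ± 0.13, adjusted p = 0.987), neither of them called. SAMHD1 overlaps antisense TLDC2, which was listed at no more than 0.322 TPM in any library.

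Promoter sequences are shown for the 3 genes that fell by at least 1 and for TYMS, because these differ in the motifs they hold. From each, the 250 bases before a RefSeq start are printed, 5′ to 3′ on the strand of the gene, and capitals mark CCAAT in either orientation (the NF-Y box), CACGTG (the E-box bound by MYC family proteins) or TTTCCCGC, TTTCGCGC, TTTGCCGC and TTTGGCGC (E2F sites) on either strand. 
RRM2 (GRCh38.p14, chr2:10122489-10122738, plus strand): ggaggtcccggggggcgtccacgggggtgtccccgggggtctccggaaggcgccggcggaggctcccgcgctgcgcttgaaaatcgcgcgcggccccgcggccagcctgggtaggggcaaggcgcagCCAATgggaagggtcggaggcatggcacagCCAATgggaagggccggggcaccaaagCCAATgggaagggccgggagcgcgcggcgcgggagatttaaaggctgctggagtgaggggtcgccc
TK1 (GRCh38.p14, chr17:78187053-78187302, minus strand): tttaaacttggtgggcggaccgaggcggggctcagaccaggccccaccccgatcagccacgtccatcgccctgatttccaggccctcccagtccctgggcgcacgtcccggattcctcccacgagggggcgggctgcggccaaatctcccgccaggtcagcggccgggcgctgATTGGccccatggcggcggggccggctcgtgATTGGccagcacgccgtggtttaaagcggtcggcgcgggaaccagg
TYMS (GRCh38.p14, chr18:657403-657652, plus strand): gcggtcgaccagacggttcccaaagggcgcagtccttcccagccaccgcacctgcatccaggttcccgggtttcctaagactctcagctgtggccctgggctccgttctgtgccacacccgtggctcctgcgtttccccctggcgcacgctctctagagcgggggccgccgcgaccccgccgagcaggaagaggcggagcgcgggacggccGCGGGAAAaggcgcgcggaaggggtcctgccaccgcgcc
UMPS (GRCh38.p14, chr3:124730202-124730451, plus strand): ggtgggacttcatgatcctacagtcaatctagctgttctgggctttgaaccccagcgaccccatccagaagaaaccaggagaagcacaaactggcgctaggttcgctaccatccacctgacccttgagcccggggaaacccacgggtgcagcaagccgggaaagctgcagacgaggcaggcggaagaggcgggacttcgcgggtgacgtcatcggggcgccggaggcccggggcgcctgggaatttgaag
RefSeq gives RRM2 and TK1 2 starts each, and the window that holds more motif matches is the one shown. The RRM2 window shown held 3 copies of CCAAT and its other window 1. The TK1 window shown held 2 in reverse orientation, and its other window held 0. TYMS held 1 E2F match, and UMPS held none of the motifs. Of the 34 genes, 31 had a promoter in the RefSeq table (250 bases before to 50 after the start, over all windows of a gene). CCAAT was found in 38.7% of these 31 and in 39.7% of all 27305 genes with a promoter. CACGTG was found in 19.4% against 8.77%, and an E2F match in 16.1% against 3.99%. Among the 9126 genes of that table that were tested, the shares were 43.9% for CCAAT, 12.9% for CACGTG and 6.76% for E2F. Of the 17 genes that fell, 4 held an E2F match (DCK, DUT, GART and TYMS). A match is a description of letters, and binding was not measured.

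Among de novo purine genes PPAT, GART, PFAS and PAICS of the early steps fell, ADSL, ATIC, ADSS and GMPS were not called, and the 2 IMP dehydrogenases went in opposite directions. In all 5 of 10 fell and 1 rose, beside 16.5% and 13.5% of all genes tested, with a median of -0.20. The count of falls was 2 without NEN replicate 2 or NEN replicate 3, and 3 without DMSO replicate 2 or DMSO replicate 3.

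PPAT, the amidotransferase that commits PRPP to purines, had 43.4, 40.7 and 40.8 TPM in the NEN libraries, against 51.3, 53.8 and 49.1 TPM in the DMSO libraries. It changed by -0.30 ± 0.07 (adjusted p = 0.0171), a call lost without NEN replicate 2 (adjusted p = 0.0595), NEN replicate 3 (0.0609) or DMSO replicate 2 (0.0576). PAICS, which carries out 2 later steps, had 234, 239 and 239.7 TPM with NEN, against 297, 315 and 299.5 TPM with DMSO. PAICS changed by -0.35 ± 0.05 (adjusted p = 0.00249) and kept its call under all 15 alternatives. One of the 3 RefSeq windows of PAICS lies head to head with that of PPAT and shares 236 of its 300 bases on the other strand, while the other 2 PAICS windows share 0. The E-box in it is printed in capitals.
PPAT (GRCh38.p14, chr4:56435616-56435865, minus strand): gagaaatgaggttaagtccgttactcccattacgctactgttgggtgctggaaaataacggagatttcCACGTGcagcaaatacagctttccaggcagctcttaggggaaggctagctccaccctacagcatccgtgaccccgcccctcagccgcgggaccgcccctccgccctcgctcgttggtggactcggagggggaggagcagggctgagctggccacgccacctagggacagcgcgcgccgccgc
GART, a trifunctional enzyme of 3 steps, had 87.1, 72.4 and 73.1 TPM with NEN, against 106, 90.7 and 104 TPM with DMSO. Its change of -0.37 ± 0.10 (adjusted p = 0.0259) lost its call without NEN replicate 2 (adjusted p = 0.0846), NEN replicate 3 (0.0840), DMSO replicate 1 (0.0606) or DMSO replicate 3 (0.0759). It was also lost with no filter (0.0591), quantile normalization (0.05325), plain limma (0.0555) or correction for length and GC content (0.0625). GART overlaps the antisense gene SON, which had 83.3, 69.8 and 82.4 TPM with NEN, against 138, 139.5 and 118 TPM with DMSO. SON fell as well (-0.74 ± 0.10, adjusted p = 0.00214 by limma), and reads of the stretch it shares with GART cannot be told apart. PFAS, the glutamine-using synthase between GART's steps, had 40.6, 36.8 and 30.4 TPM with NEN, against 52.1, 47.5 and 49.5 TPM with DMSO. PFAS changed by -0.47 ± 0.11 (adjusted p = 0.0184) and sat on the threshold without DMSO replicate 3 (-0.47, adjusted p = 0.05001).

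ADSL, which acts both before IMP and on the way to AMP, had 62.9, 62.1 and 55.4 TPM with NEN, against 65.8, 61.3 and 75.4 TPM with DMSO. Its groups overlapped and it was not called (-0.16 ± 0.09, adjusted p = 0.235). ATIC, which closes the ring to IMP, had 282, 292 and 299 TPM with NEN, against 351, 248 and 249 TPM with DMSO. Here DMSO replicate 1 stood far above the other DMSO libraries. With it the change was 0.06 ± 0.13 (adjusted p = 0.754), and without it 0.23 (adjusted p = 0.0123). ADSS, which leads to AMP, had 77.6, 83.1 and 79.4 TPM with NEN, against 73.05, 83.3 and 72.5 TPM with DMSO. Its groups overlapped, with a change of 0.07 ± 0.07 (95% interval -0.10 to 0.24), which became 0.22 once length and GC content were corrected for (adjusted p = 0.0383). GMPS, the last step to GMP, had 124, 112 and 113 TPM with NEN, against 131, 113 and 102 TPM with DMSO. GMPS overlapped between groups, with a change of 0.02 ± 0.10 (95% interval -0.21 to 0.25).

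IMP dehydrogenase, the first step towards GMP, is made from 2 genes that code for closely similar proteins. IMPDH2, the form usually raised in proliferating cells, had 256, 257 and 255 TPM in the NEN libraries, against 196, 192 and 189.6 TPM in the DMSO libraries. The groups lay well apart, and the rise of 0.41 ± 0.05 (adjusted p = 0.00123) kept its call under all 15 alternatives. IMPDH1 had 241, 216 and 228 TPM with NEN, against 269, 274 and 266 TPM with DMSO. It changed by -0.24 ± 0.06 (adjusted p = 0.0171), and that call was lost without NEN replicate 2 (adjusted p = 0.0606), NEN replicate 3 (0.0586) or DMSO replicate 2 (0.0604) and with plain limma settings (0.0630).

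Of the de novo pyrimidine genes 1 of 5 fell, 1 rose and 3 were not called, where 16.5% of all genes tested fell and 13.5% rose. Their median of 0.22, which is the value of CTPS2, had the opposite sign to that of the other branches. Summed over the 5 genes the groups overlapped, with 178, 193 and 177 TPM in NEN and 198, 179 and 186 TPM in DMSO libraries. UMPS, which joins orotate to PRPP and decarboxylates it to UMP, had 21.4, 29.1 and 22.1 TPM in the NEN libraries, against 53.7, 46.2 and 48.4 TPM in the DMSO libraries. UMPS fell by 1.01 ± 0.13 (adjusted p = 0.00179), with every NEN library below every DMSO library, and kept its call under all 15 alternatives. CAD, the trifunctional enzyme of the first steps, a known target of MYC, had 101, 93.2 and 95.8 TPM with NEN, against 87.3, 71.9 and 77.4 TPM with DMSO. The rise of 0.29 ± 0.08 (adjusted p = 0.0328) placed all NEN libraries above all DMSO libraries. It lost its call without any 1 of 5 libraries (all but DMSO replicate 1, adjusted p = 0.0648 to 0.101), with no filter (0.0689), plain limma (0.0706) and correction for length and GC content (0.059).

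DHODH, the mitochondrial step between CAD and UMPS, had 19.96, 12.3 and 15.9 TPM with NEN, against 12.7, 9.202 and 13.7 TPM with DMSO. The NEN libraries spread widely and overlapped with DMSO, and the change of 0.40 ± 0.20 was not called (95% interval -0.08 to 0.88, adjusted p = 0.18). CTPS1, the CTP synthase that proliferating lymphocytes depend on, had 16.9, 38.8 and 23.3 TPM with NEN, against 26.8, 34.7 and 31.4 TPM with DMSO. NEN replicate 2 was above all DMSO libraries and the other 2 NEN libraries below them. The change was -0.30 ± 0.27 (adjusted p = 0.439), so this value rests on single libraries. It was -0.61 without NEN replicate 2 (adjusted p = 0.04997) and -0.03 without NEN replicate 1 (adjusted p = 0.932). CTPS2, its paralog, had 18.5, 19.8 and 19.9 TPM with NEN, against 17.3, 17.3 and 15.04 TPM with DMSO. Those groups lay apart, but the change of 0.22 ± 0.10 was not called (adjusted p = 0.129), while corrected for length and GC content it was 0.31 (adjusted p = 0.0370). The sequence before CAD, shown because CAD moved against UMPS, is printed with its CCAAT box, read on the other strand, in capitals.
CAD (GRCh38.p14, chr2:27217119-27217368, plus strand): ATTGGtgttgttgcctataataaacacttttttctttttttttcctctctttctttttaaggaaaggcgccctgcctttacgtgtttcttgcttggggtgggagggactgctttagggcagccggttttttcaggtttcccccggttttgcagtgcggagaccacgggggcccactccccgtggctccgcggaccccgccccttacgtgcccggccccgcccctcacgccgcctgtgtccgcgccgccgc

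In PRPP supply and phosphate transfer 1 of 4 genes fell, beside 16.5% of all genes tested. PRPS1, a PRPP synthetase, had 86.1, 80.5 and 77.8 TPM with NEN, against 94.99, 89.3 and 90.6 TPM with DMSO, and its change of -0.17 ± 0.06 was not called (adjusted p = 0.0823). PRPS2, its paralog, had 35.8, 32.5 and 32.96 TPM with NEN, against 30.9, 40.98 and 36.9 TPM with DMSO, and these overlapped (-0.09 ± 0.11, 95% interval -0.35 to 0.17). CMPK1, which phosphorylates UMP and CMP, had 38.2, 41.6 and 37.9 TPM with NEN, against 43.5, 49.6 and 44.1 TPM with DMSO and was not called (-0.21 ± 0.08, adjusted p = 0.0873). NME1, a nucleoside diphosphate kinase and the most abundant of the 34 mRNAs, had 553, 569 and 537 TPM with NEN, against 687, 684 and 720.1 TPM with DMSO. NME1 changed by -0.33 ± 0.05 (adjusted p = 0.00315), but its assignment is uncertain. The readthrough gene NME1-NME2, which overlaps it, was listed at 1568, 1768 and 1573 TPM with NEN, against 1231, 1593 and 1679.5 TPM with DMSO, and NME2 itself at 20.3, 25.2 and 22.4 TPM with NEN, against 25.7, 19.4 and 25.7 TPM with DMSO. Summed over these 3 names the groups overlapped, with 2142, 2362 and 2132 TPM in NEN and 1944, 2296 and 2425 TPM in DMSO libraries. Of the other genes with listed pseudogenes (PPAT, PAICS, IMPDH1, GMPS, RRM2, DUT, HPRT1 and PRPS1), no pseudogene exceeded 4.65% of its parent in any library.

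The levels of 7 pairs of related enzymes were compared as ratios within each library. The balance of the 2 thymidine kinases moved most: TK1 over TK2 was 15.5, 16.9 and 11.8 in the NEN libraries, against 80.4, 40.5 and 78.7 in the DMSO libraries, a difference of -1.84 in log2 ratio of TPM + 1. TK2 is low, and the difference depended on the pseudocount, at -2.09 with 0.1 and -1.44 with 5. The ratio of RRM2 to RRM2B was 12.003, 15.4 and 16.8 in the NEN libraries, against 46.3, 35.3 and 33.2 in the DMSO libraries (difference -1.35). The ratio of RRM2 to its partner RRM1 was 1.93, 2.91 and 2.204 in the NEN libraries, against 2.89, 3.63 and 3.83 in the DMSO libraries (-0.57), with NEN replicate 2 just above DMSO replicate 1. IMPDH2 over IMPDH1 was 1.06, 1.19 and 1.12 in the NEN libraries, against 0.732, 0.702 and 0.712 in the DMSO libraries, so IMPDH2 was the more abundant form in every NEN library and IMPDH1 in every DMSO library (difference 0.65). UCK2 over UCK1 was 7.49, 9.63 and 7.14 in the NEN libraries, against 6.98, 6.09 and 5.18 in the DMSO libraries (0.38). On the log2(TPM + 1) scale these 5 ratios did not overlap between groups (RRM2 over RRM1 barely), and each had p = 0.1 in a two-sided exact permutation test, the smallest that 3 against 3 libraries allow, or 0.14 adjusted over the 7 ratios. CTPS1 over CTPS2 (difference -0.52, exact p = 0.2) and PRPS1 over PRPS2 (-0.08, exact p = 0.8) overlapped. The CTPS1 over CTPS2 difference was -0.28 without NEN replicate 1 and -0.81 without NEN replicate 2.

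**Figure D3:**
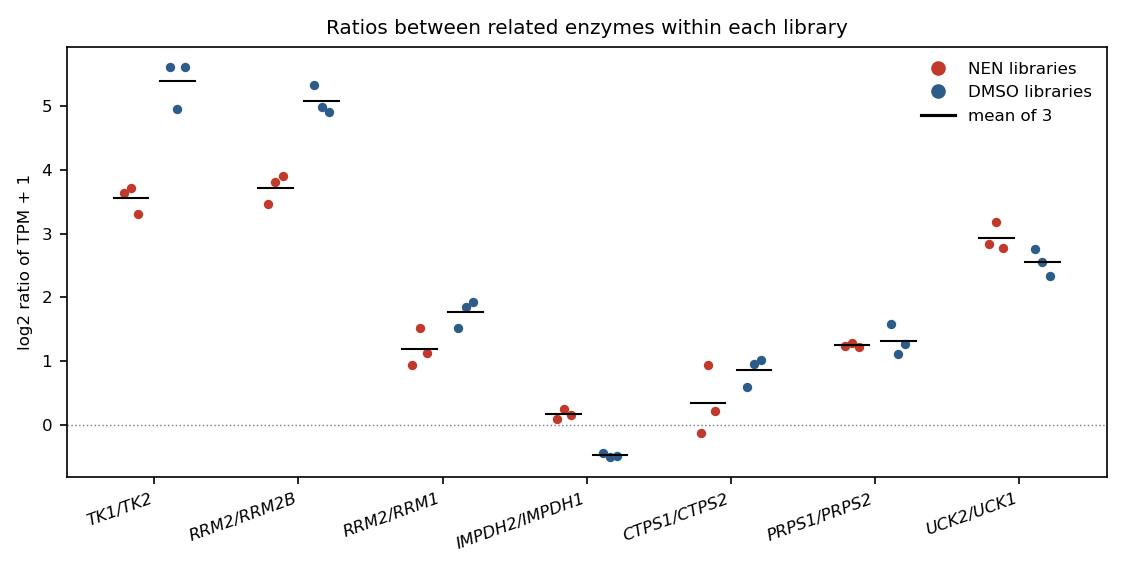
Log2 ratio of TPM + 1 between related enzymes in each library, NEN points to the left of DMSO points, with bars for the mean of 3; the dotted line marks equal levels. TK1/TK2 and RRM2/RRM2B are lower with NEN, and IMPDH2/IMPDH1 lies above the line in every NEN library and below it in every DMSO library.

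Other genes of nucleotide metabolism were taken from 5 lists of 68 names. Of the 59 that passed the filter, 9 fell and 9 rose, a share of 15.3% each beside 16.5% and 13.5% of all genes tested, with a median of 0.06. The count of rises went down to 5 without NEN replicate 1 or DMSO replicate 2 and to 3 without NEN replicate 3. DCTPP1, which removes modified dCTP from the pool, had 89.8, 99.98 and 82.3 TPM with NEN, against 137, 144 and 160.0 TPM with DMSO and fell by 0.69 ± 0.09 (adjusted p = 0.00209).

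In the folate list 3 of 8 fell and 2 rose, beside 16.5% and 13.5% of all genes tested. GGH, which trims folate polyglutamates, fell by 0.34 ± 0.06 (adjusted p = 0.00684), but was not called once length and GC content were corrected for (-0.17, adjusted p = 0.06645). The mitochondrial enzymes SHMT2 and MTHFD2, which draw one-carbon units from serine, went the other way. SHMT2 averaged 214 ± 9.72 TPM in NEN and 170.4 ± 14.2 TPM in DMSO libraries (0.33 ± 0.07, adjusted p = 0.0137), and lost its call without NEN replicate 3 (adjusted p = 0.0532) or DMSO replicate 2 (0.0510). MTHFD2 averaged 238 ± 12.3 TPM in NEN and 201 ± 8.48 TPM in DMSO libraries (0.25 ± 0.06, adjusted p = 0.0203). Its call was lost without NEN replicate 2, NEN replicate 3, DMSO replicate 2 or DMSO replicate 3 (adjusted p = 0.0516, 0.07455, 0.06702 and 0.0647) and with plain limma settings (0.0662).

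Of 22 breakdown enzymes 16 were tested, with 2 lower (12.5%) and 4 higher, where 16.5% of all genes tested were lower and 13.5% higher. PNP, which splits purine nucleosides and so feeds HPRT1, averaged 77.9 ± 4.37 TPM in NEN and 102 ± 1.96 TPM in DMSO libraries (-0.39 ± 0.06, adjusted p = 0.00418). AMPD2, which deaminates AMP to IMP, averaged 116 ± 4.24 TPM in NEN and 85.7 ± 10.3 TPM in DMSO libraries (0.43 ± 0.09, adjusted p = 0.0113). Among 22 other kinases and salvage enzymes 2 fell (9.09%) and 1 rose, where 16.5% of all genes tested fell and 13.5% rose. Of 9 transporters 6 were tested, of which 0 fell and 2 rose, beside the same 16.5% and 13.5% of all genes tested. SLC29A4, a monoamine and adenosine transporter, had 24.1, 24.8 and 25.1 TPM in the NEN libraries, against 10.1, 9.64 and 7.496 TPM in the DMSO libraries. This rise of 1.35 ± 0.12 (adjusted p = 0.000625) was larger in size than any change among the 34 enzymes. SLC25A36, a mitochondrial pyrimidine nucleotide carrier, averaged 56.5 ± 0.852 TPM in NEN and 41.3 ± 2.18 TPM in DMSO libraries (0.44 ± 0.07, adjusted p = 0.00353).

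**Figure D4:**
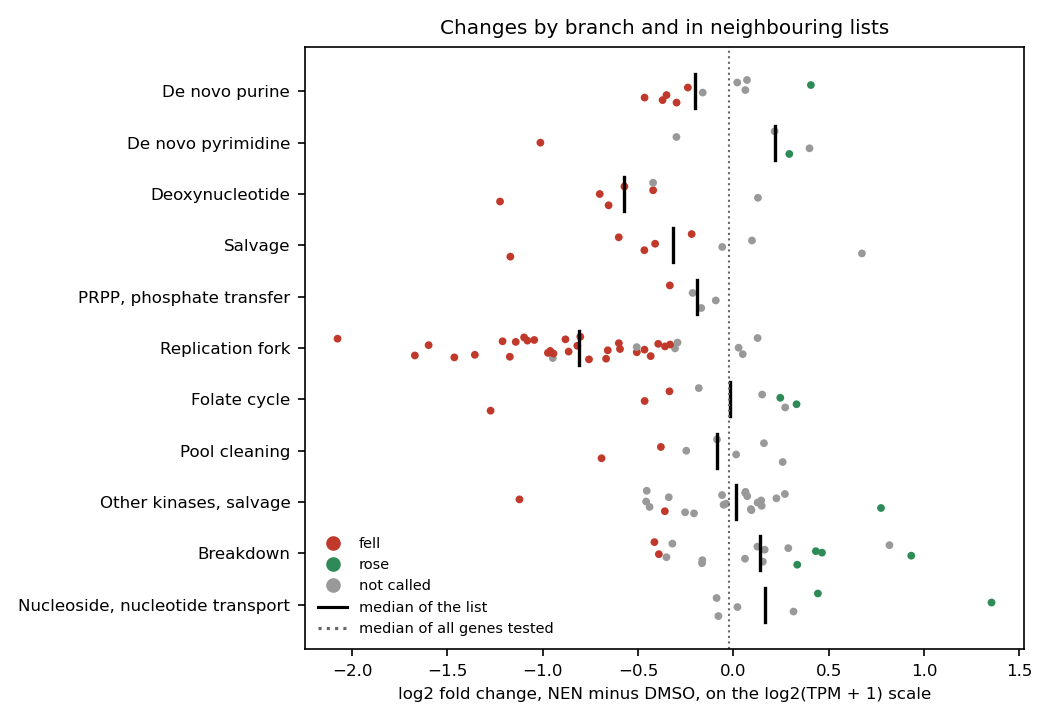
Log2 fold change of each tested gene by branch and in neighbouring lists (NEN minus DMSO, log2(TPM + 1) scale); points are genes coloured by call, black bars list medians, the dotted line the median of all genes tested. The deoxynucleotide median (-0.57) lies nearest to that of the replication fork list (-0.81), and the pyrimidine median lies to the right of the dotted line.

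A list of replication fork genes was set beside the deoxynucleotide branch. In it 29 of 36 genes fell and 0 rose by limma (0 at an unadjusted p under 0.05 too), with a median of -0.81. The deoxynucleotide branch had 5 of 7 lower and a median of -0.57, and 16.5% of all genes tested fell. MCM6, a subunit of the replicative helicase, averaged 36.7 ± 2.00 TPM in NEN and 83.98 ± 4.58 TPM in DMSO libraries (-1.17 ± 0.07, adjusted p = 0.000245). That change was about the size of those of TK1 and RRM2, but MCM6 does not stand for its list. Changes ranged from -2.08 to 0.13 in the fork list and from -1.22 to 0.13 in the deoxynucleotide branch. Whether the 2 lists differ was not tested.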

How the data were processed

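RNA-seq libraries, 3 with NEN and 3 with DMSO, were grouped by the treatment in their labels. Per the labels' protocols, RNA was extracted with Trizol, and polyA capture or rRNA removal is named without saying which. The authors deposited TPM values per gene name. Per the submitters' processing notes, kallisto was used and hg19 is the build. No version of either is given in the sources used here. Depth is unknown, so no counting intervals are given.

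A gene was kept where its mean over the 6 libraries reached 1 TPM, which left 12576 genes, all 34 enzymes among them. log2(TPM + 1) was fitted on group with limma (version 3.58.1, R 4.3.3) with trend and robust settings. Two-sided p-values were adjusted by Benjamini-Hochberg over these 12576 genes, and calls were made under 0.05. The test was checked on simulated data. Members and gene lists were chosen with earlier results of these data known, and no list was tested as a set. Every member is accounted for, and of each other list at most 4 called genes with the smallest adjusted p are named. A few genes of these lists are counted but not reported here by name. Promoter sequences came from RefSeq (GRCh38.p14) and overlaps, length and GC content from GENCODE release 29, neither of which is the build of the files. Of the 34 symbols, ADSS was matched to the promoter of ADSS2; ADSL, IMPDH2 and RRM2B are not in that table. Plots used matplotlib 3.10.9 (Python 3.11.15).

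Other settings tried were the replicate number as a block, each library left out in turn, no filter, a minimum mean of 5 TPM, median-ratio scaling, quantile normalization, limma without trend and robust settings, and pseudocounts of 0.1 and 5. Chosen after seeing the data was a loess correction (span 0.3) of every library for transcript length and GC content, with values for 93.4% of genes tested and for all 34 enzymes.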

Additional observations from a re-analysis of the deposited data

How the results depend on the processing

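Of the 19 enzymes called, 12 kept their call under all 15 alternatives and none changed direction under any of them. PPAT, GART, PFAS, IMPDH1, CAD, UCK1 and UCK2 lost theirs under at least 1. Leaving out 1 library at a time gave 13 to 16 falls and 1 to 3 rises among the 34 enzymes, 2 to 5 falls and 1 to 2 rises in the purine branch, 1 to 2 falls and 0 to 1 rise in the pyrimidine branch, 0 to 1 rise in salvage, 3 to 9 rises among the related genes, and 1063 (without NEN replicate 1) to 1554 rises and 1402 to 1914 falls over all genes. With no filter or limma's plain settings 1 enzyme rose, and 0 in the pyrimidine branch. Plain settings gave 3 purine falls and length and GC correction 2 purine rises. A minimum log2 fold change of 1 left 158 falls and 198 rises over all genes. Quantile normalization moved the branch medians to -0.1265 (purine), -0.2491 (salvage), -0.1216 (PRPP and phosphate transfer) and -0.2083 (all 34). Length and GC correction gave -0.231 (salvage), -0.09323 (PRPP and phosphate transfer) and -0.2093 (all 34). A minimum mean of 5 TPM, which drops TK2, gave -0.4107 for salvage, and a pseudocount of 0.1 gave -0.6631 for deoxynucleotides. Leaving out single libraries gave medians of 0.152 to 0.2486 for pyrimidines and -0.326 to -0.2836 for salvage, and differences of -0.1843 to 0.05696 for the PRPS1/PRPS2 ratio, which reversed without DMSO replicate 1. The causes were not tested. With replicate numbers as a block 17 enzymes fell and 2 rose, and MTHFD2 (0.25, adjusted p = 0.0538 by limma) lost its call. The deviations of same-numbered libraries correlated at 0.0117, -0.00755 and -0.0278, so no effect shared by same-numbered libraries was seen. These values cannot say whether such libraries were handled together. TPM without counts limits what low genes such as SAMHD1 and TK2 can show.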

Other observations

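The genes in this paragraph were chosen after their values were seen. Several genes of nucleotide metabolism were listed at or near 0 in these cells. Of the 68 related names 9 had a mean under 1 TPM and were not tested: the nucleotidase NT5C1B, the AMP deaminase AMPD1, xanthine dehydrogenase (XDH), guanine deaminase (GDA), uridine phosphorylase UPP2, cytidine deaminase (CDA) and the concentrative nucleoside transporters SLC28A1, SLC28A2 and SLC28A3. AMPD1, SLC28A1 and SLC28A3 were listed at 0 in every library. CDA was listed at 0.266, 0.467 and 0 TPM in NEN and 0, 0 and 0.242 TPM in DMSO libraries. The equilibrative transporter SLC29A1 was listed at 80.1, 83.3 and 84.9 TPM with NEN, against 94.8, 81.7 and 86.4 TPM with DMSO, and its change of -0.08 ± 0.07 was not called.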
